A study of Mus musculus with 6 samples.

Results

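The 9 genes Lhx1, Lhx5, Lhx2, Lhx9, Pou4f1, Lbx1, Tlx3, Barhl1 and Barhl2 encode homeodomain transcription factors that newly born interneurons of the dorsal neural tube switch on as they leave the cell cycle. Their 16 probe sets, out of 45037 on the array, were taken by gene symbol, whatever their values, and the genes are 9 of 18193 with a symbol of their own. The arrays measured RNA from embryoid bodies, floating aggregates of mouse embryonic stem cells that here were driven toward neural fates. All cultures came from 1 stem cell line with a Gli1-FLAG transgene, a tagged hedgehog transcription factor expressed constitutively from the Rosa26 promoter, so the control cultures carried it too. After 2 days in suspension, 3 RA cultures received 500 nM all-trans retinoic acid for 3 days, and 3 RA-Ag1.3 cultures received the same retinoic acid with 50 nM Ag1.3, an agonist of the hedgehog transducer Smoothened. Each RA-Ag1.3 culture was grown in parallel with the RA culture of the same number, which makes 3 pairs.

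In the embryo, the dorsal neural tube is patterned by BMP and Wnt signals from the roof plate, and the ventral neural tube by Sonic hedgehog from the notochord and floor plate. Neurons born at each dorsoventral position express a characteristic combination of homeodomain factors. Lhx2, Lhx9, Barhl1 and Barhl2 mark the most dorsal interneurons, and Pou4f1 spans several dorsal classes. Tlx3 marks excitatory neurons and Lbx1 association neurons. Lhx1 and Lhx5 mark inhibitory and commissural classes that reach from the dorsal to the intermediate and ventral neural tube. The cultures are whole aggregates, so fewer cells of a type and less RNA per cell cannot be told apart.

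The stretch of genome that bears on the first result lies between the starts of Lhx1 and Lhx1os, a noncoding RNA gene that is transcribed away from Lhx1. It is shown because both genes read lower with Ag1.3 and their start sites are separated by only these 125 bases. The sequence is RefSeq's, from the GRCm38.p6 assembly at chr11:84525535-84525659, minus strand, so it runs 5′ to 3′ from next to the Lhx1os start to next to the Lhx1 start, and neither transcript is part of it. Capitals mark, in order, a CCAAT box (here as ATTGG), the half-site TGACG of cAMP response elements and the homeodomain core TAAT (here as ATTA).
Lhx1-Lhx1os: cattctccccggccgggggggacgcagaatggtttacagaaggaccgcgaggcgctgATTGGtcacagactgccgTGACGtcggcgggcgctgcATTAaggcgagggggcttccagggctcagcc
The 3 matches begin at positions 58, 76 and 95, counted from 1 at the left, and do not overlap one another. Among 32851 RefSeq start sites, the same number of bases before the start held CCAAT or ATTGG in 21.9%, TGACG or CGTCA in 11.9% and TAAT or ATTA in 32.8%. The E-box, CANNTG, was searched as well and was absent from the stretch, while 41.6% of start sites had it. The G and C content of the stretch was 66.4%, against a median of 54.4% over all start sites. These are matches of letters and not mapped binding sites. Start-site sequences were matched for 7 of the 9 genes. A gene was counted if any of its start sites held the match, while the percentages above count start sites singly. Of those 7, the homeodomain core was present in 4 (Lhx1, Lhx9, Tlx3 and Barhl1), the CCAAT box in 3 (Lhx1, Lhx9 and Tlx3), the cAMP half-site in 3 (Lhx1, Lhx2 and Barhl1) and the E-box in 3 (Pou4f1, Barhl1 and Barhl2).

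With Ag1.3, Lhx1 and Lhx5 fell to about a log2 unit below their RA level, and the other 7 genes did not pass the test. That is 2 of 9 genes lower and 0 of 9 higher in limma's test, with 2 of 9 at an unadjusted p under 0.05, where 14.9% of all genes were. Over all 18193 genes 1.39% were called at an adjusted p under 0.05 (Benjamini-Hochberg), 0.313% as lower and 1.07% as higher. Lower genes made up 22.6% of those called, and 83% when the arrays were scaled to their spikes. The median log2 fold change of the 9 genes was -0.06, beside -0.0070 over all genes. The treatment itself was visible in Ptch1, the hedgehog receptor and a direct target of the pathway, which rose by 1.23 on the log2 scale (adjusted p = 0.0235), and in Olig2, a factor of motor neuron progenitors, which rose by 4.63 (adjusted p = 0.00736). Ptch1 did not pass without the block (adjusted p = 0.134) or without pair 1, 2 or 3 (adjusted p of 0.0659, 0.115 and 0.081), and Olig2 did not without pair 2 (adjusted p = 0.0501).

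**Figure D1:**
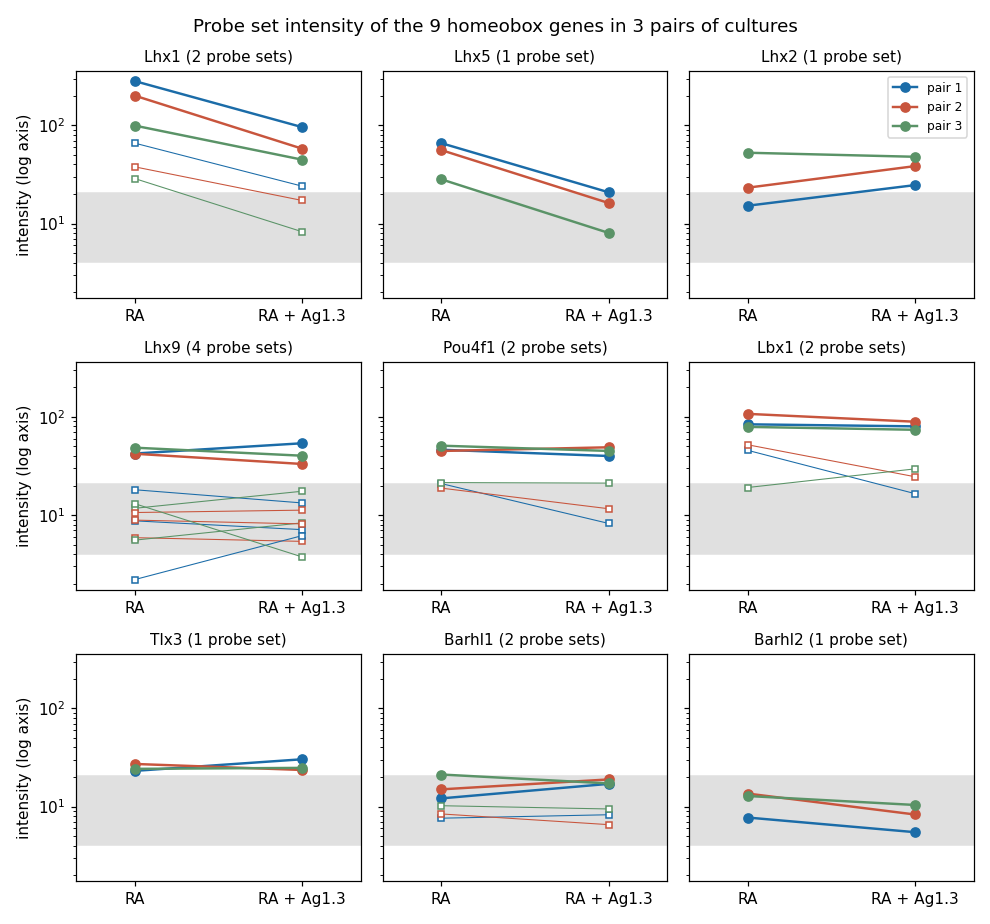
Probe set intensity (log axis) of the 9 genes in RA and RA-Ag1.3 cultures, with 1 line per pair. Filled circles are the brightest probe set of a gene, open squares its other probe sets, and the grey band is the range of control probe sets without a matching spike (4.02 to 20.71). All lines of Lhx1 and Lhx5 slope downward, and for Lhx2 the lines of pairs 1 and 2 slope upward and that of pair 3 downward.

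Lhx1, a LIM homeodomain factor of inhibitory and commissural interneurons, gave intensities at its brighter probe set, 1450428_at, of 283.16, 201.25 and 99.67 for the RA cultures of pairs 1, 2 and 3. The RA-Ag1.3 cultures of these pairs gave 96.1, 57.94 and 44.78, and all values below follow this order. The lowest RA culture stayed just above the highest RA-Ag1.3 culture, and pair 1 was the brightest and pair 3 the dimmest under both conditions. Means were 195 ± 91.9 and 66.3 ± 26.7 (SD, n = 3 each), and within pairs RA was 2.95, 3.47 and 2.23 times RA-Ag1.3. The log2 fold change was -1.30 (SE 0.136, 95% interval -1.64 to -0.96, adjusted p = 0.0216). The dimmer Lhx1 probe set, 1421951_at, read 65.98, 37.84 and 28.73 in RA and 24.05, 17.19 and 8.25 with Ag1.3. The groups did not overlap. With Ag1.3 the values of pairs 2 and 3 lay within the range of control probe sets that had no spike (4.02 to 20.71), so the size of this decrease is limited by background. Its log2 fold change was -0.87 (SE 0.0985), with an adjusted p of 0.042 over all 45037 probe sets. Both probe sets were designed from the same sequence record, so they are not independent. Of the 16 probe sets 3 passed, all lower, while over all probe sets 0.515% passed, 0.0888% as lower and 0.426% as higher.

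Lhx5, the closest relative of Lhx1 and often expressed with it, has 1 probe set, 1420348_at. It read 66.07, 56.13 and 28.28 in RA and 20.84, 16.2 and 8.03 with Ag1.3. The groups did not overlap, and again pair 3 was lowest under both conditions. Of the Lhx5 values with Ag1.3, those of pairs 2 and 3 lay within the same control range and that of pair 1 just above it, so the size of the decrease is limited by background. The log2 fold change was -1.07 (SE 0.0913, 95% interval -1.30 to -0.84, adjusted p = 0.013). RA above RA-Ag1.3 without overlap was found for 2 of the 9 genes, Lhx1 and Lhx5, and for 5.35% of all genes, and RA-Ag1.3 above RA for 0 of the 9 and 6.45% of all. Among probe sets RA was above in 3 of 16 and in 5.42% of all, and RA-Ag1.3 in 0 of 16 and in 5.8% of all.

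Lhx1 and Lhx5 were lower with Ag1.3 in 3 of 3 pairs, but their calls rested on the pairing and on pairs 1 and 2. When limma ignored the pairing, adjusted p was 0.392 for Lhx1 and 0.262 for Lhx5. Without pair 1 adjusted p was 0.113 and 0.0791, and without pair 2 it was 0.111 and 0.089, while both passed without pair 3 (0.0401 and 0.0492). With a pseudocount of 1 in place of 16, adjusted p was 0.136 and 0.079. The calls over all genes fell with fewer pairs as well, from 252 genes to 39, 35 and 62 without pairs 1, 2 and 3.

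Lhx1os, the noncoding neighbour of Lhx1 across the 125 bases printed above, read 174.54, 181.19 and 97.12 in RA and 77.54, 81.58 and 44.26 with Ag1.3 (probe set 1439232_at). The groups did not overlap, and pair 3 was lowest here too. Its log2 fold change was -0.98 (SE 0.0757, 95% interval -1.17 to -0.79, adjusted p = 0.0104), lower in 3 of 3 pairs. Without pairs 1, 2 and 3 in turn adjusted p was 0.0724, 0.0752 and 0.057, and without the block it was 0.362. Lhx1os was named because its pattern over the arrays was close to that of Lhx5, which is lower with Ag1.3. Its adjusted p values are therefore descriptive and not independent support. On the other side of Lhx1 the next gene, Aatf, an apoptosis-related transcription cofactor, had a log2 change of -0.07 (adjusted p = 0.778). Beyond Lhx1os the next gene with a value, Mrm1, a mitochondrial RNA methyltransferase, had -0.02 (adjusted p = 0.947). The decrease was called at Lhx1 and Lhx1os and at neither of these flanking genes, a difference that was not itself tested. Around Lhx5, the nearest genes with values were Rbm19 at -0.07 (adjusted p = 0.773) and Plbd2 at -0.09 (adjusted p = 0.726). With no value in between were 4 genes on the Rbm19 side and 2 on the Plbd2 side. These 4 protein-coding neighbours are given for their position in RefSeq's gene order, whatever their values.

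**Figure D2:**
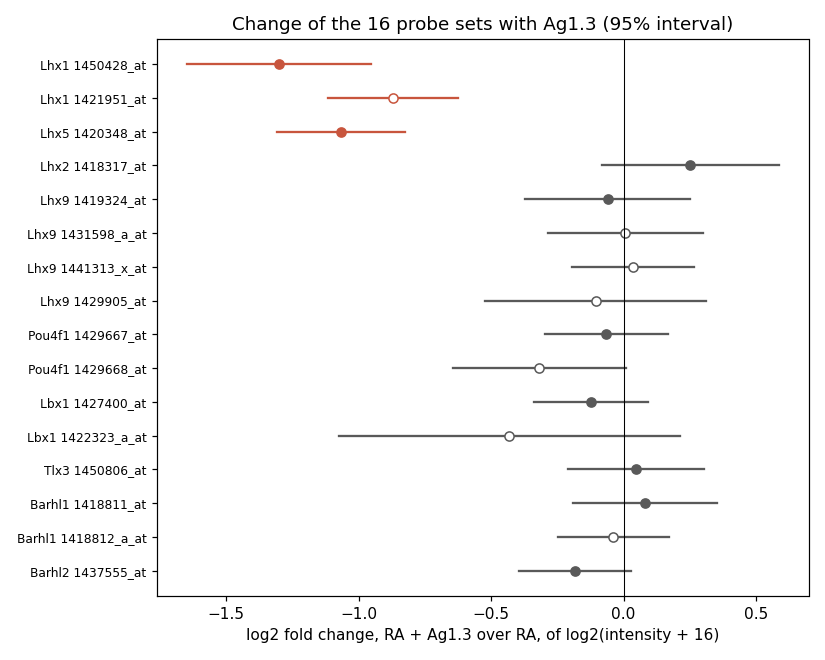
Log2 fold change of each of the 16 probe sets, RA-Ag1.3 over RA, with its 95% interval from limma. Filled points are the brightest probe set of a gene, and the 3 red points, of Lhx1 and Lhx5, passed an adjusted p of 0.05 over all probe sets.

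The 7 genes that did not pass had log2 fold changes from -0.18 to 0.25 and adjusted p from 0.358 to 0.876. Their 95% intervals reached down to -0.38 (Barhl2) and up to 0.58 (Lhx2). These genes were dim. Of the 9 genes 5 were above the control range on all 6 arrays, and 1, Lhx1, was above the median gene. At such levels the pseudocount compresses fold changes and small differences are not detectable.

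Among the markers of the most dorsal interneurons, Lhx2, a LIM homeodomain factor also used in forebrain and eye, differed more between pairs than between conditions. It read 15.19, 23.2 and 52.71 in RA and 24.65, 38.5 and 47.94 with Ag1.3. Ag1.3 was higher in pairs 1 and 2 and lower in pair 3, and the log2 fold change was 0.25 (SE 0.13, adjusted p = 0.455). Leaving out 1 pair at a time moved it from 0.14 to 0.43, the latter without pair 3 (adjusted p = 0.153). Pair 3, where Lhx2 was highest in both conditions, was the pair with the lowest Lhx1 and Lhx5.

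Lhx9, the relative of Lhx2 in the same neurons, read 42.39, 42.15 and 48.61 in RA and 53.93, 33.16 and 40.26 with Ag1.3 at its brightest probe set. The groups overlapped and the log2 fold change was -0.06 (SE 0.121, adjusted p = 0.872). Its other 3 probe sets were within or below the control range on all arrays. Barhl1 and Barhl2, homeodomain factors that act downstream of the proneural factor Atoh1 in the same lineage, were at background. The brighter Barhl1 probe set read 12.11, 14.97 and 21.22 in RA and 17.03, 18.9 and 17.21 with Ag1.3, above the control range on 1 of 6 arrays. Barhl2 read 7.73, 13.57 and 12.81 in RA and 5.48, 8.3 and 10.38 with Ag1.3, above the control range on 0 arrays. It was lower with Ag1.3 in 3 of 3 pairs by a log2 fold change of -0.18 (adjusted p = 0.358), a difference between values at background.

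Pou4f1, a POU homeodomain factor of dorsal interneurons and of sensory neurons, read 46.34, 44.99 and 50.95 in RA and 39.99, 49.07 and 45.06 with Ag1.3. The groups overlapped within a narrow range (log2 fold change -0.06, SE 0.0867, adjusted p = 0.797). Its dimmer probe set, 1429668_at, read 20.94, 18.82 and 21.44 in RA and 8.22, 11.6 and 21.17 with Ag1.3, lower in 3 of 3 pairs (log2 fold change -0.32, adjusted p = 0.442). Tlx3, which selects an excitatory over an inhibitory identity, read 23.11, 27.18 and 24.23 in RA and 30.34, 23.59 and 24.79 with Ag1.3, just above the control range on all arrays (log2 fold change 0.05, SE 0.0971, adjusted p = 0.876). The fitted sign for Tlx3 turned with spike scaling (-0.070), as did that of Barhl1 (-0.015).

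Lbx1, which marks the association neurons of the dorsal horn and opposes Tlx3 in the choice of transmitter, read 84.15, 107.55 and 79.2 in RA and 80.2, 89.43 and 74.02 with Ag1.3. Values overlapped between conditions and were lower with Ag1.3 in 3 of 3 pairs by a small amount (log2 fold change -0.12, SE 0.0791, adjusted p = 0.555). The other Lbx1 probe set, 1422323_a_at, did not follow it. It read 45.73, 52.09 and 19.08 in RA and 16.54, 24.59 and 29.56 with Ag1.3, lower in pairs 1 and 2 and higher in pair 3. Its log2 fold change of -0.43 had the widest interval of all 16 probe sets, -1.07 to 0.21 (adjusted p = 0.599).

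The levels of other cell types' genes moved beside Lhx1 and Lhx5. The 12 general neuron genes summed to 2341 to 4148 in RA and 7099 to 10354 with Ag1.3, where 9 of 12 passed the test as higher, and the 7 measured motor neuron genes summed to 216 to 267 and 1441 to 2256, with 5 higher. Lhx1 minus the mean of the 12 neuron genes, on the log2 scale, was 0.05, -0.18 and -0.57 in RA and -2.56, -2.86 and -2.89 with Ag1.3. For Lhx5 the same quantity was -1.82, -1.77 and -1.96 in RA and -4.17, -4.06 and -4.23 with Ag1.3. Relative to these neuron genes, both decreases were wider than in the log2 intensities themselves, which follows from the subtraction because all 12 were higher with Ag1.3. The RA replicates of both Lhx1 and Lhx5 lay closer together. Within each condition the neuron genes, like Lhx1 and Lhx5, were highest in pair 1 and lowest in pair 3, while the 6 pluripotent cell genes, which summed to 4648 to 7591 in RA and 2927 to 5876 with Ag1.3, had their lowest sums in pair 1 and highest in pair 3. The part of these shifts in the results for Lhx1 and Lhx5 was not tested.

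**Figure D3:**
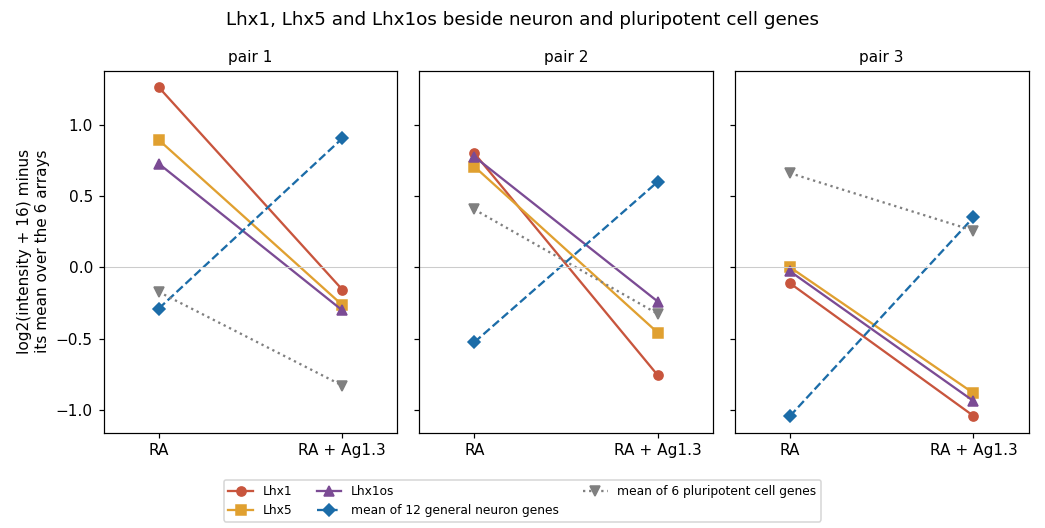
Log2(intensity + 16) minus its mean over the 6 arrays, in RA and RA-Ag1.3 of each pair, for Lhx1, Lhx5, Lhx1os and the means of 12 general neuron and 6 pluripotent cell genes. In each pair Lhx1, Lhx5 and Lhx1os are lower with Ag1.3 while the neuron genes are higher.

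Lhx1 is also expressed outside interneurons, in kidney precursors and in the organizer and anterior endoderm of the early embryo, and Lhx2 in forebrain and eye. Of 8 intermediate mesoderm and kidney genes 0 fell and 1, Ret, rose, while 5 were under 0.05 before adjustment and 6 of 8 had values below 0 (median log2 fold change -0.15). Emx2 (-0.67, adjusted p = 0.0879) and Gata3 (-0.38, adjusted p = 0.0914) were lower without overlap. With Ag1.3 both read within the control range on all arrays, as did Gata3 in RA of pairs 1 and 2. The sizes of these differences are limited by background. The sums were 379 to 406 in RA and 565 to 654 with Ag1.3, and without Ret, left out after seeing the data, they were lower with Ag1.3 in each pair (313.5 and 297.2, 311.3 and 285.0, 334.3 and 256.6). Of 8 organizer and anterior endoderm genes 2 fell (Sox17 and Lefty1) and 1 rose (Foxa2, also a floor plate gene), with sums of 484 to 1014 in RA and 573 to 1183 with Ag1.3, and Gsc, Cer1 and Otx2 stayed within or below the control range on every array. Of 7 measured forebrain and eye genes 0 passed in limma, and 0 were under 0.05 before adjustment, with Rax and Emx1 at background and sums of 216 to 240 and 220 to 263. For sensory neurons and neural crest, which share Pou4f1 and Tlx3 with dorsal interneurons, 0 of 7 measured genes passed in limma, 1 was under 0.05 before adjustment, Pou4f3 was at background, and sums were 336 to 427 and 423 to 496. The part of these cells in the levels of the 9 genes was not tested. The labels call the cultures neural progenitors, and 8 progenitor genes summed to 6048 to 8570 in RA and 7306 to 8752 with Ag1.3. Past the threshold 1 of 8 was higher (Notch1) and 0 lower. Before adjustment 5 were under 0.05, of which Pax6 was lower (-0.48, adjusted p = 0.0535) and Nes, Fabp7, Hes5 and Notch1 were higher. Genes named from these marker lists were chosen after their values were seen.

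**Figure D4:**
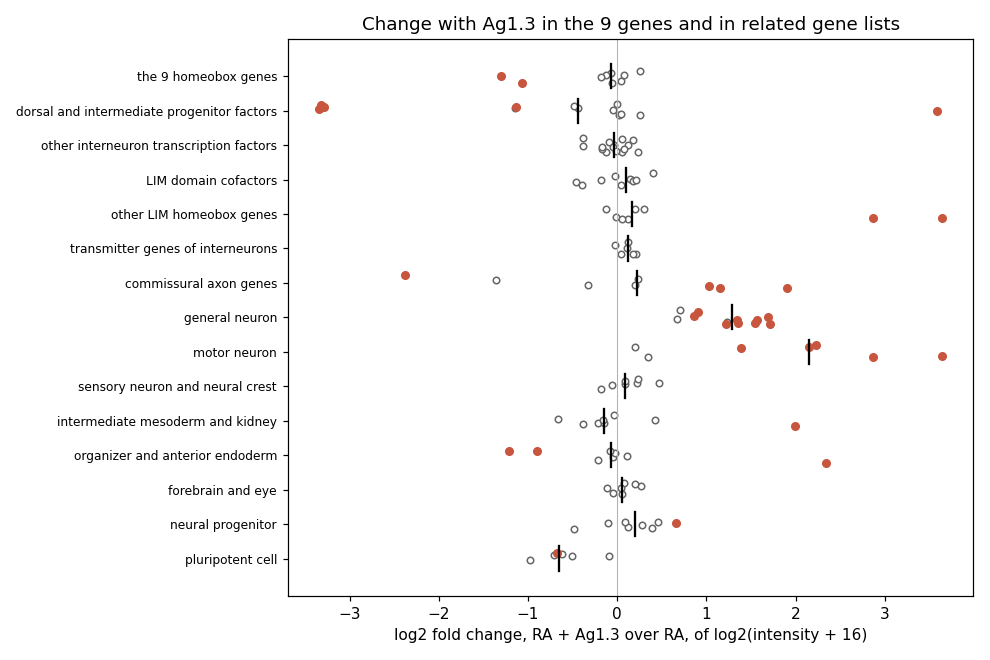
Log2 fold change of each gene, RA-Ag1.3 over RA, in the 9 homeobox genes and in related lists. Red points passed an adjusted p of 0.05 over all genes, and black bars are list medians.

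The progenitors that give rise to these interneurons are set by a further group of factors. Of 13 measured dorsal and intermediate progenitor factors 4 fell and 1 rose past the threshold, with a median log2 fold change of -0.43. Before adjustment 9 were under 0.05. Ptf1a (-0.43, adjusted p = 0.0779), Gsx1 (-1.14, adjusted p = 0.187) and Msx3 (-0.49, adjusted p = 0.118) were lower in 3 of 3 pairs without passing. With Ag1.3 Ptf1a and Gsx1 read within the control range on all arrays, as did Gsx1 in RA of pair 3. The sizes for Ptf1a and Gsx1 are therefore limited by background. Neurog1 was higher in 3 of 3 pairs without passing (0.25, adjusted p = 0.202). These genes were named after their values were seen. Dbx1, a factor of the intermediate progenitors that produce Lhx1 and Lhx5 neurons, fell by 3.29 on the log2 scale (adjusted p = 0.013). Irx3, of dorsal and intermediate progenitors, fell by 1.14 (adjusted p = 0.0132). Pax3, which acts in dorsal progenitors (adjusted p = 0.013), and its relative Pax7 (adjusted p = 0.0487) fell. On all RA-Ag1.3 arrays they read within or below the control range. Taking the top of that range as the lowest measurable level, Pax3 was at least 12.2-fold lower. Neurog2, a proneural factor used in dorsal as well as ventral domains, was the member that passed as higher, by 3.59 (adjusted p = 0.018). It was named with Pax7 after the values were seen. Several of these calls depended on the pairing or on 1 pair. Without the block adjusted p was 0.694 for Irx3, 0.151 for Dbx1 and 0.0923 for Pax7. Without pair 1 it was 0.0785 for Irx3, 0.0521 for Dbx1, 0.143 for Pax7 and 0.071 for Neurog2. Without pair 2 it was 0.0501 for Irx3, 0.0866 for Pax3, 0.218 for Pax7 and 0.0846 for Neurog2, and without pair 3 it was 0.0683 for Irx3.

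Other interneuron transcription factors did not accompany Lhx1 and Lhx5 past the threshold. Their list held factors of dorsal and intermediate classes, and also some that mark ventral interneurons, such as Gata2, Gata3, Tal1 and Sox14. Of 15 measured members 0 passed in limma, and 1 was under 0.05 before adjustment, with a median log2 fold change of -0.03, and En1 and Sox14 were within or below the control range on all arrays. Gata2, the brightest of them, read 128.21, 131.42 and 148.77 in RA and 119.83, 142.24 and 143.11 with Ag1.3. Genes for the transmitters of these neurons were also dim. Of 6, 0 passed in limma, and 0 were under 0.05 before adjustment. The brightest, Slc17a7, a vesicular glutamate transporter, read 35.1, 29.61 and 32.83 in RA and 24.9, 30.66 and 40.86 with Ag1.3.

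Of 8 other LIM homeobox genes 2 rose and 0 fell, both risers motor neuron genes: Isl1 by 3.65 (SE 0.184, adjusted p = 0.00363) and Lhx3 at least 10.9-fold against the top of the control range (adjusted p = 0.0209). Lhx3 read 17.28, 15.83 and 19.43 in RA, within that range, and 383.94, 243.8 and 123.3 with Ag1.3. Its adjusted p was 0.0521 without pair 1 and 0.124 without pair 2. Its other probe set moved the same way by far less, from 32.61, 32.07 and 26.32 to 77.67, 66.67 and 37.72. LIM factors work in complexes with Ldb adaptors, Ssbp proteins and the competing Lmo proteins. Of 10 such cofactors 0 passed in limma, and 3 were under 0.05 before adjustment, with a median log2 fold change of 0.09. Ssbp3, the brightest, read 972.52, 979.31 and 964.66 in RA and 1212.12, 1066.43 and 1105.37 with Ag1.3, without overlap (log2 fold change 0.21, adjusted p = 0.313).

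Commissural axon genes, which many Lhx1 and Lhx5 neurons use to cross the midline, moved in both directions. Of 8 members 3 rose and 1 fell past the threshold, and 7 were under 0.05 before adjustment. Dcc (log2 fold change -1.36, adjusted p = 0.0727) and Robo1 (-0.33, adjusted p = 0.125) were lower in 3 of 3 pairs without passing. Plxna1 was higher in 3 of 3 pairs without passing (0.20, adjusted p = 0.292). They were named after their values were seen. Cntn2, an adhesion protein of commissural and other early axons, rose by 1.90 (adjusted p = 0.00363), Robo2, a Slit receptor, by 1.03 (adjusted p = 0.0104) and L1cam, an adhesion protein of most growing axons, by 1.15 (adjusted p = 0.0159). Robo3, the receptor specific to commissural axons before crossing, was the 1 that passed as lower and was named after its value was seen (adjusted p = 0.0194). With Ag1.3 it read within the control range on all arrays, and against the top of that range it was at least 4.99-fold lower. Its other probe set read 28.54, 40.24 and 31.89 in RA and 33.23, 39.25 and 33.36 with Ag1.3 and did not follow. Cntn2 passed whichever pair was left out. Robo2 did not (adjusted p of 0.0588 to 0.0669), nor did L1cam without pair 1 (adjusted p = 0.0827) or 3 (0.0856), nor Robo3 without pair 1 (adjusted p = 0.0521) or 2 (0.115).

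The genes whose pattern over the 6 arrays was closest to that of Lhx1 and Lhx5 were found by the root mean square distance of centred log2 values, among genes brighter than the median gene. For Lhx1 these were Irx2 (0.218), Irx1 (0.227), the carbonic anhydrase gene Car3 (0.237), Gli3 (0.247) and the hedgehog co-receptor gene Gas1 (0.252). For Lhx5 they were Gli3, a repressor of hedgehog targets (0.0826), Lhx1os (0.119), Pde1b (0.15), Ppp1r1a (0.176) and Pcdh19 (0.195). Gli3 was the 1 gene on both lists. It read 729.46, 653.08 and 426.77 in RA and 289.13, 268.04 and 208.06 with Ag1.3, again lowest in pair 3 under both conditions. These genes were picked for a pattern that is lower with Ag1.3, so no test of that difference is given for them here. The test printed for Lhx1os above has the same limit and is no independent support. A further Gli3 probe set did not follow, reading 279.06, 354.66 and 299.77 in RA and 217.72, 350.69 and 280.79 with Ag1.3. Such distances rank likeness over 6 arrays that share 2 conditions and 3 pairs.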

How the data were processed

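Each of 6 Affymetrix arrays held 1 culture's RNA, and the authors deposited an intensity per probe set, on a linear scale. Labelled cRNA was made from 2.5 ug total RNA with a 3' IVT kit, per the labels' protocols, with a summary method and scaling not given in the sources used here. Medians were 48.68 to 52.55. Replicates of a group correlated at 0.982 to 0.992 across genes, which are not independent replicates, and 2 arrays of a group shared 21 to 37 exactly equal values, leaving out the value 1. The hybridization spikes read 0.192 higher on the log2 scale with Ag1.3. After 64 control probe sets were left out, 34945 of 45037 had 1 symbol in the platform annotation. For each gene the brightest probe set, by mean log2 value, was used.

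Values were transformed to log2(intensity + 16), which understates fold changes of dim genes, and tested two-sided with limma 3.58.1 in R 4.3.3, with culture pair (replicate number) as a block and Benjamini-Hochberg adjustment over all genes, or over all probe sets where probe sets are compared. The design text pairs the parallel cultures, and deviations from group means correlated at 0.538, 0.186 and 0.561 for equal numbers and -0.515 to 0.0726 otherwise. The p-values measure the spread between 3 pairs of cultures of 1 line. The fit was tested on simulated data. The members and lists were chosen with earlier results of these data known. Named genes were the 9 genes, up to 3 of each list with the smallest p past the threshold or else its brightest, Ptch1, Olig2, and 5 genes most like each called member. Alternatives were the pseudocount, a filter, the block, the moderation, scaling, probe set averaging and leaving out each pair, for the other named genes added after seeing the data.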

Additional observations from a re-analysis of the deposited data

How the results depend on the processing

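The count of 2 genes and of 3 probe sets past the threshold rested on the pairing. Without the replicate block 0 genes and 0 probe sets passed in limma's test, with 2 and 3 at an unadjusted p under 0.05. With a pseudocount of 1 it was 0 and 0, with 3 and 4 at an unadjusted p under 0.05. Leaving out each pair gave 0 to 2 genes and 0 to 0 probe sets (without pairs 1, 2 and 3, 2, 2 and 3 genes and 3, 3 and 6 probe sets had an unadjusted p under 0.05). Among features brighter than the median it was 1 gene, Lhx1, and 1 probe set, because 1 gene and 2 probe sets were left. Under the other alternatives 2 genes, Lhx1 and Lhx5, and 2 or 3 probe sets passed. Lhx1 passed in 8 of 12 alternatives and Lhx5 in 7 of 11, with adjusted p of 2.7e-05 to 0.392 and 6.2e-05 to 0.262 and log2 fold changes of -1.49 to -0.94 and -1.68 to -0.52, all below 0. Lhx1os, which was picked for its pattern, passed in 7 of 12, with -1.15 to -0.69. Scaling to the spikes moved the median gene to -0.157 and called 1686 genes, 83% of them lower, against 252 and 22.6%. Counts of called genes were 831 with a pseudocount of 64, 891 with an intensity trend, 897 of 9096 among brighter genes, 86 without the block and 39, 35 and 62 without pairs 1, 2 and 3. With a pseudocount of 1 it was 0, and the cause was not tested. Fitted log2 fold changes near 0, of genes that had not passed, changed sign: Barhl1 (-0.015) and Tlx3 (-0.070) with spike scaling and, over the fits that left out 1 pair each, Lhx9 (-0.22 to 0.030), Gata2 (-0.068 to 0.026), Slc17a7 (-0.14 to 0.13) and Tlx3 (-0.053 to 0.13). Of the 9 genes 1 was above the median gene, so signal over background limits what could be seen.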
